A study of Homo sapiens with 36 samples.

Results

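The genes described here encode the nuclear-encoded parts of the mitochondrial respiratory chain and the ATP synthase, together with the helper proteins that share their gene names. They were taken by symbol: every annotated nuclear gene whose symbol starts with NDUFA, NDUFB, NDUFC, NDUFS, NDUFV, SDHA to SDHD, UQCR, COX4 to COX8 or ATP5, with the brightest probe standing for each gene. This gave 91 genes of the 15308 tested: 79 subunits, 10 assembly factors, 1 inhibitor (ATP5IF1) and 1 pseudogene (SDHAP1). By complex they were 42 genes of complex I, 7 of complex II, 7 of complex III, 17 of complex IV and 18 of the ATP synthase (complex V). All 91 passed the filter on dim probes. SDHB, UQCRFS1 and NDUFB11 were not analysed here, because no probe carried their symbol in the annotation used.

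The cells were NB4, an established human line of acute promyelocytic leukaemia that carries the PML-RARA fusion. All groups were this 1 line, so none stands for other leukaemias or for normal promyelocytes. The 12 groups of 3 arrays were untreated control cells, cells given all-trans retinoic acid (ATRA), which drives these cells to mature towards granulocytes, cells given atorvastatin, a statin that inhibits HMG-CoA reductase, and cells given ATRA followed 1 h later by atorvastatin (the combination), each at 8, 24 and 48 h. Doses are not given in the sources used here.

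The respiratory chain sits in the inner mitochondrial membrane. Complex I oxidises NADH and complex II succinate, both pass electrons through ubiquinone to complex III, and cytochrome c carries them to complex IV, which reduces oxygen. Complexes I, III and IV pump protons, and the ATP synthase uses the gradient to make ATP. A minority of subunits is encoded by mitochondrial DNA; those genes do not belong to the nuclear set described here. Assembly factors bind the growing complexes and are absent from the finished enzyme.

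Total RNA was hybridised to Illumina Human-6 bead arrays, 36 in all, and values below are normalized log2 signals. The series text states 3 independent experiments. The titles give only a running number per array, so experiments 1, 2 and 3 are here the successive runs of 12 numbers, which no label states outright; per-array values below follow that order. Raw array medians ran from 152.2 to 185.4 on the arrays of experiment 1 labelled without ATRA and from 78.5 to 118.2 on all others. Within experiment 1 the raw level thus went with the ATRA label, and effects of level and of ATRA cannot be told apart there. At 24 h, the array labelled ATRA of experiment 1 had an NCF1 signal of 7.87, against 13.79 and 13.93 on the other ATRA arrays, and the array labelled atorvastatin of experiment 1 had 13.64, against 7.48 and 7.36. NCF1, a subunit of the phagocyte oxidase, is a gene that ATRA turns on, so both libraries go against their labels. They were kept as labelled, and results that rest on them are also given without them. On 1 further array, atorvastatin at 48 h of experiment 1, 3 of the 91 genes (ATP5PD, NDUFS4 and UQCRH) lay more than 2 log2 units below every other array.

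The 3 genes meant to mark the chain were checked first. NDUFS3, a core subunit of complex I, had signals between 9.87 and 11.16 over the 36 arrays, and UQCRC1, a core protein of complex III, between 10.50 and 11.27. The 90th percentile of all probes was 8.57, so both were bright on every array, and SDHB was not analysed here. Of the 91 genes, 72 had a mean signal above that percentile. Another 10 had a mean below the 75th percentile of 6.61, near background, where a low level and no expression look alike: COX4I2, COX6A2, COX6B2, COX7A1, COX7B2, COX8C, ATP5MC2, NDUFAF3, SDHAF4 and SDHAP1.

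The dim subunits were for the most part the tissue-restricted partners of bright ones. COX4I2, COX6A2, COX6B2, COX7A1 and COX8C, known as isoforms of lung, muscle, heart or testis, had mean signals between 6.19 and 6.42. Their widely expressed partners COX4I1 (13.09), COX6A1 (12.87), COX6B1 (12.01), COX7A2 (11.32) and COX8A (13.17) were far above background. These are different probes, so the signals place each gene against background and not against its partner. Of the 3 genes for the same mature c subunit of the ATP synthase rotor, ATP5MC1 and ATP5MC3 were bright and the ATP5MC2 probe was at 6.24. ATP5F1B, the catalytic beta subunit, was the brightest gene of complex V at 14.35. NDUFS6 (13.24), SDHC (11.16), UQCR10 (13.04) and COX7C (13.52) were the brightest of complexes I, II, III and IV, and NDUFAF3, SDHAP1, UQCR11 (7.14), COX4I2 and ATP5MC2 the dimmest.

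The range of a gene's 12 group means had a median of 0.44 log2 units, and it passed 0.5 in 35 genes. In ATP5PD it was 1.93, with the low array of atorvastatin at 48 h in it. The range over all genes is not given here, so these values do not compare the set with the array. The changes are shown gene by gene in the heat map of treatment against control.

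**Figure D1:**
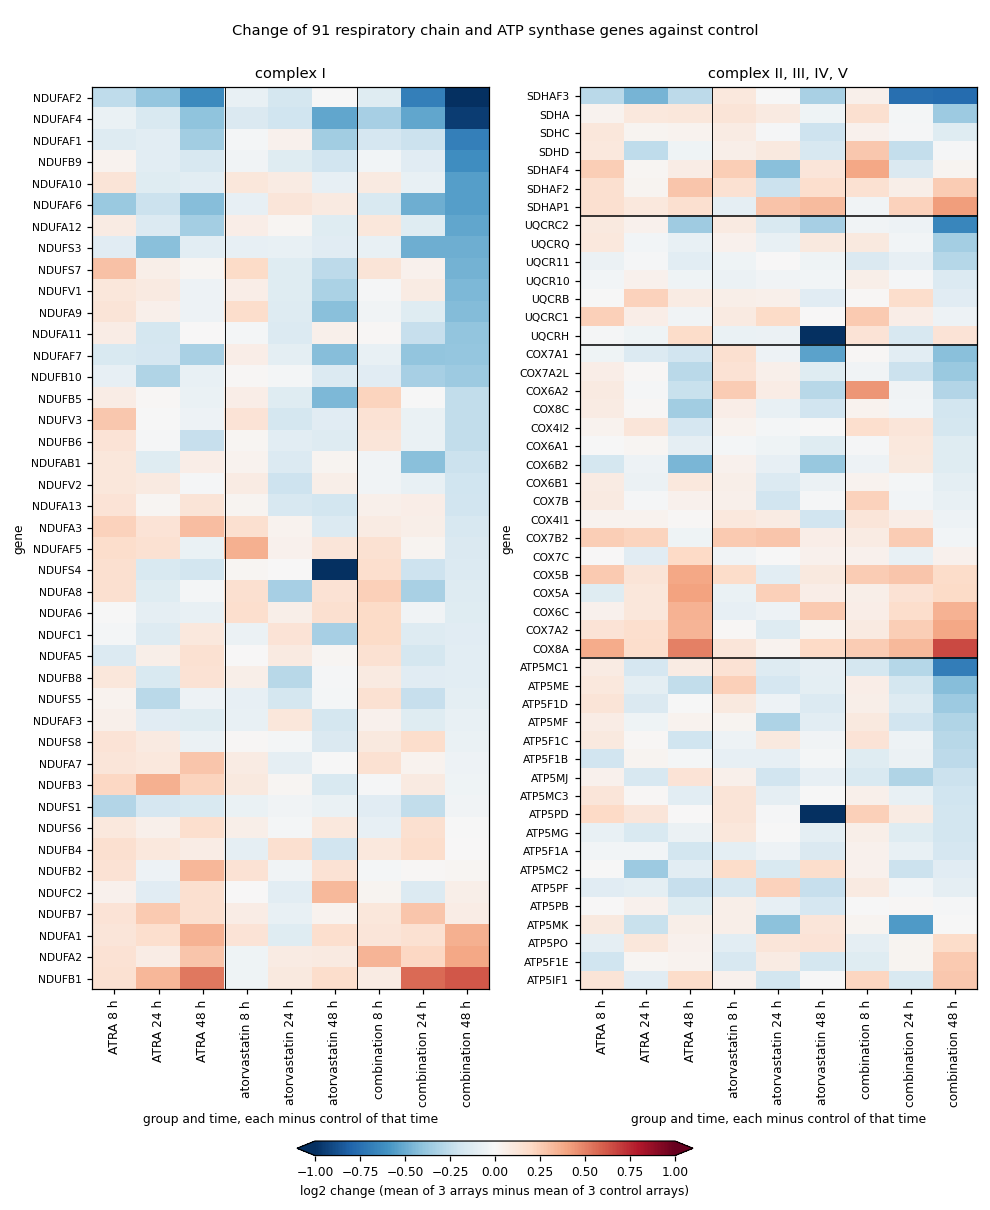
Each row is 1 of the 91 genes, ordered within its complex by the change at 48 h of the combination, and each column is ATRA, atorvastatin or the combination at 8, 24 or 48 h minus control of that time. Colour is the log2 change under quantile normalization, limited to 1 in either direction. The 48 h combination column holds the deepest colours, with NDUFAF2 and NDUFAF4 lowest in complex I and COX8A and NDUFB1 highest in complexes IV and I; the dark atorvastatin cells of UQCRH, NDUFS4 and ATP5PD at 48 h rest on 1 array, and under median scaling most of the lighter blue of the combination column turns above 0.

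The combination at 48 h moved more of these genes than any other treatment against control. In that comparison, limma's test (adjusted p at most 0.05 over all 15308 genes) called 14 of the 91 genes lower and 5 higher. Over all genes, 10.7% were called lower and 9.66% higher in this comparison, so the share of the set that changed, 20.9%, was close to that of the array. The median change was -0.13 for the 91 genes, -0.01 for all genes and -0.10 for the 3992 genes above the 90th percentile. In 24 genes the 3 combination arrays lay below the 3 control arrays, in 7 above them, and in 60 the groups overlapped. The same count over all genes is not given here, so these numbers have no baseline and show nothing particular to the set.

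The balance between falls and rises depended on the scaling of the arrays. Quantile normalization forces 1 distribution on every array. When each array was only centred on its median, the all-gene median moved from -0.01 to 0.10, that of bright genes from -0.10 to 0.28 and that of the 91 genes from -0.13 to 0.18. Calls over all genes went from 1479 higher and 1636 lower to 2445 higher and 339 lower, and calls among the 91 from 5 higher and 14 lower to 10 higher and 0 lower. The 14 genes called lower all kept a change below 0 under median scaling, none of them past the threshold, whereas the 5 called higher were called under both scalings. The 14 falls are therefore described below under quantile normalization, and their calls depend on that scaling.

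**Figure D2:**
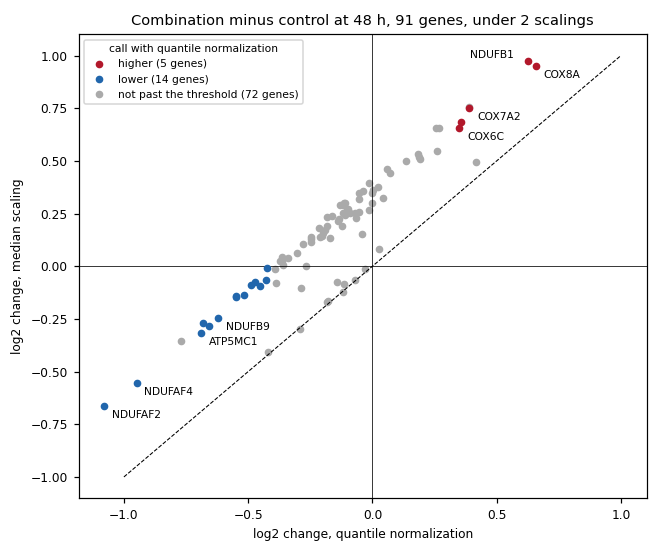
Each point is 1 of the 91 genes, with its log2 change of the combination against control at 48 h under quantile normalization on the x axis and under median scaling on the y axis; the dashed line marks equal values. Most points lie above the line. The 14 genes called lower (blue) stay below 0 on both axes, though none is called lower under median scaling, and the 5 called higher (red) are above 0 on both.

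Of the 7 complex I assembly factors in the set, all with symbols starting NDUFAF, 4 fell against control at 48 h of the combination. The 7 changes had a median of -0.55 (-0.14 under median scaling). Complex I factors with other names, such as FOXRED1, are not among these 7 and are counted with the lists below. NDUFAF2 binds a late intermediate of complex I in the place later taken by its paralogue NDUFA12. Its signal was 9.71, 9.82 and 9.77 in control and 8.78, 8.70 and 8.58 in the combination, groups that lay far apart. It fell by 1.08 (SE 0.18, adjusted p = 3.1e-05 in limma), lower in 3 of 3 experiments. NDUFAF4, which acts with NDUFAF3 on the ubiquinone-binding part of complex I, had 9.49, 9.69 and 9.46 in control and 8.64, 8.48 and 8.68 in the combination. It fell by 0.95 (SE 0.13, adjusted p = 1.21e-06 in limma), and no combination array reached a control array. NDUFAF1, which helps build the membrane arm, fell by 0.68 (SE 0.17). NDUFAF6, needed for an early step, fell by 0.55 (SE 0.18). The values for NDUFAF5 (-0.14), NDUFAF7 (-0.39) and the dim NDUFAF3 (-0.07) did not pass the test. Among the 19 alternatives run for it, the NDUFAF2 change stayed between -1.16 and -0.66 and missed the threshold in 1, median scaling, and that of NDUFAF4 between -1.03 and -0.56, with the same exception. Other calls of this comparison were less stable: alternatives lost that of NDUFA9 in 10 of 19, NDUFA1 in 9 of 18, ATP5ME and COX6C in 8 of 19, NDUFAF6, NDUFS3, NDUFS7 and COX7A2 in 7 of 19 and NDUFV1 in 6 of 19. The 8 remaining calls were lost in 1 to 3.

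**Figure D3:**
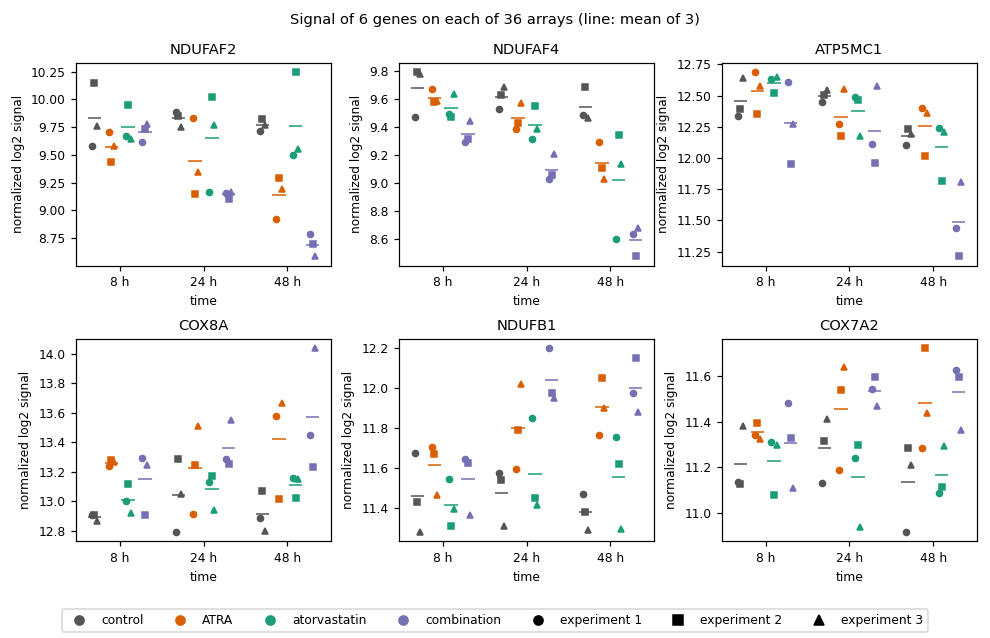
Each panel gives the normalized log2 signal of 1 gene on the 36 arrays by time; colours are the 4 arms, symbols the 3 experiments, and the line is the mean of 3 arrays. At 48 h the combination arrays lie below control for NDUFAF2, NDUFAF4 and ATP5MC1 and above it for COX8A, NDUFB1 and COX7A2; the falls, unlike the rises, are not called under median scaling.

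Of the 35 complex I subunits, 7 fell and 2 rose in the combination at 48 h. Those that fell came from several parts of the enzyme. NDUFV1, which holds the flavin that accepts electrons from NADH, had 12.50, 12.74 and 12.70 in control and 12.03, 12.19 and 12.36 in the combination, and fell by 0.45 (SE 0.14). NDUFS3 and NDUFS7, core subunits of the arm that hands electrons to ubiquinone, fell by 0.49 (SE 0.16) and 0.47 (SE 0.15). NDUFB9, an accessory subunit of the membrane arm, had 12.07, 12.41 and 12.19 in control and 11.57, 11.78 and 11.44 in the combination. It fell by 0.62 (SE 0.11, adjusted p = 8.28e-05 in limma), and the groups did not overlap. The accessory subunits NDUFA10 (-0.55), NDUFA12 (-0.52) and NDUFA9 (-0.43) fell as well. For NDUFA10 the difference was -0.20 in experiment 1, -0.99 in experiment 2 and -0.46 in experiment 3, so its size was uneven.

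The 2 that rose are small accessory subunits of complex I that each cross the membrane. NDUFB1 had 11.47, 11.38 and 11.29 in control and 11.98, 12.15 and 11.88 in the combination, above every control array. It rose by 0.62 (SE 0.14, adjusted p = 0.00113 in limma), and by 0.97 under median scaling. NDUFA1, encoded on the X chromosome, rose by 0.36 (SE 0.12), with differences of 0.41, 0.10 and 0.56 in the 3 experiments. NDUFA2, an accessory subunit of the matrix arm, had a change of 0.39 that missed the threshold under quantile normalization and passed it under median scaling, where its change was 0.76.

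In complex II no gene passed the test in this comparison, and 1 of the 3 subunits had an unadjusted p under 0.05. SDHA, the flavoprotein that oxidises succinate, had 10.50, 11.26 and 11.27 in control and 10.79, 10.53 and 10.62 in the combination, a change of -0.36 (SE 0.15). That the change missed the threshold depended on the control array of experiment 1: without this array it was -0.62 and passed. It also passed without experiment 1 (-0.69) and with the authors' log2 values (-0.40), while under median scaling it was 0.0082. The membrane anchors SDHC and SDHD had -0.12 (SE 0.15) and -0.02 (SE 0.21). The assembly factor SDHAF3, which helps place iron-sulphur clusters in SDHB, had -0.77 (SE 0.30). Its 3 combination arrays were 9.24, 9.55 and 8.13 and the control arrays 10.00, 9.43 and 9.80, a spread too wide to pass.

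In complex III, 1 of 7 genes fell. UQCRC2, the second core protein, had 12.30, 12.38 and 12.38 in control and 11.74, 11.71 and 11.64 in the combination. It fell by 0.66 (SE 0.16, adjusted p = 0.00211 in limma), and the arrays of the 2 groups did not meet. Its partner UQCRC1 had a change of -0.05 (SE 0.15), and its groups overlapped. The difference between these 2 genes was not tested.

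In complex IV, 3 of 17 subunits rose and 0 fell. COX8A, its smallest nuclear subunit, had 12.88, 13.07 and 12.79 in control and 13.45, 13.23 and 14.04 in the combination. It rose by 0.66 (SE 0.17, adjusted p = 0.00439 in limma), though the difference was 0.17 in experiment 2 and 1.24 in experiment 3. COX7A2 rose by 0.39 (SE 0.14), with 10.92, 11.29 and 11.21 in control and 11.62, 11.60 and 11.37 in the combination. COX6C, a small membrane subunit, rose by 0.35 (SE 0.11), from 12.63, 12.53 and 12.50 to 13.04, 12.84 and 12.83. COX4I1 (-0.05), COX5A (0.19), COX5B (0.19), COX6A1 (-0.12) and COX6B1 (-0.10) did not pass, and neither did COX7A2L (-0.37), a COX7A relative that helps join complexes III and IV. The differences between these subunits were not tested.

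In the ATP synthase 2 of 17 subunits fell. ATP5MC1 had 12.11, 12.23 and 12.20 in control and 11.44, 11.21 and 11.81 in the combination, with every combination array below control. It fell by 0.69 (SE 0.17, adjusted p = 0.00225 in limma). ATP5MC3, which encodes the same mature c subunit, had a change of -0.20 (SE 0.13) that did not pass, and the dim ATP5MC2 had -0.11. ATP5ME, the e subunit of the membrane part, fell by 0.42 (SE 0.14). ATP5F1B had -0.27 and the inhibitor ATP5IF1, which blocks ATP hydrolysis by the enzyme, 0.27, neither past the threshold.

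To show the sequence before the start of the genes that moved most, the 250 bases upstream of the annotated start are given for the 2 called lower with the largest change, the 2 called higher with the largest change, and the called gene with the largest fall among those holding the NRF1 motif. They are from RefSeq (GRCh38.p14), at chr5:60944955-60945204 (plus strand) for NDUFAF2, chr6:96897892-96898141 (minus strand) for NDUFAF4, chr14:92121707-92121956 (minus strand) for NDUFB1, chr11:63974370-63974619 (plus strand) for COX8A and chr12:95003698-95003947 (minus strand) for NDUFA12. Each is written 5′ to 3′ on the gene's strand, and capitals mark a match to either motif.
NDUFAF2: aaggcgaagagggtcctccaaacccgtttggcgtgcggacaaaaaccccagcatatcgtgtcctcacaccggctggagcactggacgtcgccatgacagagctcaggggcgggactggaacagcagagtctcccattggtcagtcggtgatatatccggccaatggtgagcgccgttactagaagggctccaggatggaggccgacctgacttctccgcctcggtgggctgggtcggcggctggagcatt
NDUFAF4: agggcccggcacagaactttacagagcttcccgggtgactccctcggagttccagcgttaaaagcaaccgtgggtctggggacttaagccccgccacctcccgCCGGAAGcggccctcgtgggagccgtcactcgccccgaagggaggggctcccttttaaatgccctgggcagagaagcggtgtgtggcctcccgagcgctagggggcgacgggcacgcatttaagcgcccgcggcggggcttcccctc
NDUFB1: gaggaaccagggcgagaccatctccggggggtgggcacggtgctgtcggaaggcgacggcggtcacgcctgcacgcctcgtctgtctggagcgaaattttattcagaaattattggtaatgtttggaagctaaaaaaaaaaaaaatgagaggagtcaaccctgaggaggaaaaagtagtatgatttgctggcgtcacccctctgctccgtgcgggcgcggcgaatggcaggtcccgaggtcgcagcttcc
COX8A: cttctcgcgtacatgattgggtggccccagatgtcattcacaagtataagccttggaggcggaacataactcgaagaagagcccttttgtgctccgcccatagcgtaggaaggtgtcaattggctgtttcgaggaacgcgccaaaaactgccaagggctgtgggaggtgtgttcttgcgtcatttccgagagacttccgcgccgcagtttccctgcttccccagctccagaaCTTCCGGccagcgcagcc
NDUFA12: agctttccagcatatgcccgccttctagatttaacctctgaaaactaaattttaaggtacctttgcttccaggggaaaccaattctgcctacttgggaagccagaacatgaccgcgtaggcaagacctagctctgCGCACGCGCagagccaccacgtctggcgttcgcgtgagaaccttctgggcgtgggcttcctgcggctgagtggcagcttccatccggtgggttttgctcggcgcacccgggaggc

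The motifs, searched on both strands, were GCGCNTGCG, the core of the site of NRF1, and CCGGAAG, the core of the site of ETS factors such as GABP. Both factors are known regulators of respiratory chain genes, and the motifs do not overlap each other. Promoters were listed for 76 of the 91 genes. The NRF1 motif was in 22 of them (28.9%), against 7.09% of all 27305 promoters and 9.75% of the 15843 of protein-coding genes. The ETS motif was in 19 (25%), against 8.82% and 11.8%. Among genes called at 48 h of the combination, the NRF1 motif was in 4 of 12 that fell and 0 of 4 that rose, and the ETS motif in 2 of 12 and 2 of 4. A match is a description of these letters in this window and shows no binding.

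With ATRA alone at 48 h, 3 of these genes rose and 1 fell against control, where 4.04% of all genes were called higher and 3.96% lower. NDUFB1 rose by 0.53 (SE 0.14), with ATRA arrays at 11.77, 12.05 and 11.90, all above control. COX5A, a matrix-side subunit of complex IV, rose by 0.41 (SE 0.13) and COX6C by 0.35 (SE 0.11). NDUFAF2 fell by 0.63 (SE 0.18), with ATRA arrays at 8.92, 9.29 and 9.20. Under median scaling 2 genes were called higher and 0 lower, and NDUFB1 was the 1 of the 4 still called. The call of COX6C was lost in 11 of 19 alternatives, COX5A in 10 of 18, NDUFAF2 in 8 of 19 and NDUFB1 in 5 of 19. All 7 NDUFAF genes had a change below 0 (median -0.35), and NDUFAF2 alone passed. Assembly factors outside the naming rule went both ways. COX17 (0.55, SE 0.16) and COX20 (0.50, SE 0.14) rose, and both were called under either scaling. COA7 fell (-0.59, SE 0.17), called under quantile normalization but not under median scaling. FOXRED1 (-0.33) and ACAD9 (0.13) did not pass the threshold.

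Atorvastatin alone at 48 h changed none of the 91 genes in limma's test, where 0.771% of all genes were called, and 14 had an unadjusted p under 0.05. That percentage is at the adjusted threshold, so it is no baseline for the 14. NDUFAF4 came nearest, with 8.60, 9.34 and 9.13 against 9.49, 9.69 and 9.46 in control, a change of -0.52 (SE 0.13, adjusted p = 0.0504 in limma). Its lowest value, 8.60, was on the array of experiment 1 on which UQCRH, NDUFS4 and ATP5PD were far below all other arrays. Without the 2 arrays that go against their labels, 1 gene was called lower.

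**Figure D4:**
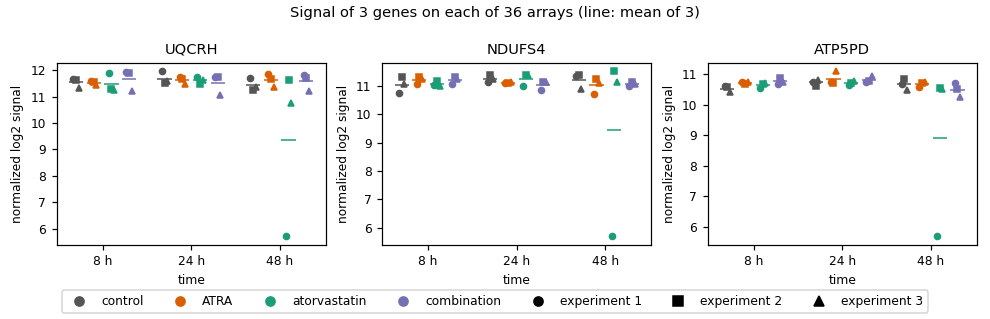
Each panel gives the normalized log2 signal of UQCRH, NDUFS4 or ATP5PD on the 36 arrays by time; colours are the 4 arms, symbols the 3 experiments, and the line is the mean of 3 arrays. A single atorvastatin array at 48 h lies at 5.71, 5.70 and 5.69, while the 35 others are above 10.

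The greatest atorvastatin changes by size came from 1 array. UQCRH, the hinge protein of complex III, had 5.71, 11.64 and 10.75 at 48 h of atorvastatin. NDUFS4, a subunit at the NADH-oxidising end of complex I, had 5.70, 11.51 and 11.14, and ATP5PD, a subunit of the ATP synthase side stalk, 5.69, 10.54 and 10.53. On the low array their raw intensities were 71.6, 42.9 and 36.3, below the array median of 152.2, while the lowest raw values on the other 35 arrays were 1317.3, 1729.3 and 1156.3. In all, 41 genes lay more than 2 log2 units below every other array there. On the combination array of experiment 3 at 48 h, 9 genes did so, 0 of them among the 91, and no other array had any.

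Setting the combination against each agent alone at 48 h shares the combination arrays with the comparison above. Against ATRA, 4 of the 91 genes were lower and 0 higher, with 2.98% and 3.42% over all genes. ATP5MC1 fell by 0.77 (SE 0.17), NDUFAF4 by 0.54 (SE 0.13), SDHA by 0.47 (SE 0.15) and NDUFB9 by 0.46 (SE 0.11). ATP5MC1 on the ATRA arrays was 12.40, 12.01 and 12.36, close to control. SDHA on the ATRA arrays was 11.22, 10.94 and 11.20, and 10.79, 10.53 and 10.62 on the combination arrays, below all of them. Under median scaling the 4 kept a change below 0 and none was called. Alternatives lost the call of SDHA in 10 of 19, NDUFAF4 in 6 of 19, NDUFB9 in 6 of 18 and ATP5MC1 in 2 of 19.

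Against atorvastatin, 8 were lower and 3 higher, with 7.74% and 7.1% over all genes. NDUFAF2 fell by 1.08 (SE 0.18) and NDUFAF6 by 0.63 (SE 0.18). ATP5MC1 (-0.60), NDUFA10 (-0.47), NDUFA11 (-0.44), NDUFAF4 (-0.43), NDUFB9 (-0.43) and NDUFA12 (-0.40) were the other 6. Under median scaling 30 genes of the set were called higher and 0 lower, and 5 of these 8 (NDUFA10, NDUFA11, NDUFA12, NDUFAF4 and NDUFB9) had a change above 0. The percentages above are for quantile normalization, so they are no baseline for the 30. The median change under that scaling was 0.40 for the set, 0.15 for all genes and 0.49 for bright genes. The set thus lay above all genes but not above bright genes, and these calls do not show a rise particular to the respiratory chain. NDUFB1 rose by 0.45 (SE 0.14) and ATP5F1E, the epsilon subunit of the rotor, by 0.44 (SE 0.12). The calls of NDUFB1 and NDUFAF6 were lost in 7 of 19 alternatives, ATP5F1E in 7 of 18, ATP5MC1 in 6 of 19 and NDUFAF2 in 1 of 19. Those 5 that turned above 0 missed the threshold in 3 (NDUFB9) to 8 (NDUFA11) further alternatives. The call for UQCRH, 2.21 (SE 0.67), rested on the low array: without it the change was 0.38 and did not pass.

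Whether the effect of both agents differed from the sum of each was tested as an interaction. No gene of the set passed at 8, 24 or 48 h in limma's test, with 0, 0 and 7 at an unadjusted p under 0.05, and over all genes 0%, 0% and 0.536% were called. These percentages are at the adjusted threshold and are no baseline for the unadjusted counts. At 48 h ATP5MC1 had -0.68 (SE 0.24; -0.29 under median scaling), the dim COX6B2 0.72 (SE 0.22) and UQCRH 2.03 (SE 0.95), the last with the low array in it.

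At 24 h the combination had called 3 genes lower and 1 higher against control, with 2.52% and 3.52% over all genes. NDUFAF2 had 9.16, 9.10 and 9.17 against 9.89, 9.85 and 9.75 in control, and fell by 0.69 (SE 0.18). NDUFAF4 fell by 0.52 (SE 0.13), from 9.53, 9.62 and 9.69 to 9.03, 9.06 and 9.20. ATP5MK, a small ATP synthase subunit involved in its dimers, fell by 0.57 (SE 0.13), from 8.14, 8.11 and 8.13 to 7.63, 7.49 and 7.57. NDUFB1 rose by 0.57 (SE 0.14), from 11.57, 11.54 and 11.31 to 12.20, 11.98 and 11.95. In each of these 4 genes the groups did not overlap, and under median scaling NDUFB1 was still called and the 3 others were not. The call of NDUFAF2 was lost in 8 of 19 alternatives, those of NDUFAF4 and NDUFB1 in 6 of 19 and that of ATP5MK in 3 of 19.

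The other 24 h comparisons called 0 of the 91 genes in limma's test. ATRA against control had 4 members at an unadjusted p under 0.05 and 0.581% of all genes called, and atorvastatin against control 3 members and 0.0327%. The combination against ATRA had 3 members and 0.0131%, and against atorvastatin 12 members and 1.47%. All these percentages are at the adjusted threshold and are no baseline for the unadjusted counts of members. Without the 2 arrays that go against their labels, ATRA against control called 1 gene and the combination against atorvastatin 4. For NDUFAF2, the array labelled ATRA of experiment 1 was at 9.83 and the other ATRA arrays at 9.15 and 9.35, and the array labelled atorvastatin of experiment 1 was at 9.17 and the others at 10.03 and 9.77.

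At 8 h no gene of the set was called. ATRA against control had 4 genes at an unadjusted p under 0.05 (1.42% of all genes called in limma's test), atorvastatin 2 (0.00653%) and the combination 4 (1.31%). The combination against ATRA had 1 (0.00653%) and against atorvastatin 1 (1.16%). Here too the percentages are at the adjusted threshold and are no baseline for the unadjusted counts.

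Time alone moved the untreated cells little. From 8 to 48 h, control cells had 1 gene higher, the dim SDHAF4 (0.58), and 0 lower, with 1.9% and 1.77% over all genes. With ATRA 0 rose and 3 fell, ATP5MK (-0.45), NDUFA6 (-0.39) and NDUFAF4 (-0.47), where 3.1% and 2.85% of all genes were called. Alternatives lost the call of NDUFA6 in 10 of 18, and those of ATP5MK, NDUFAF4 and, in control cells, SDHAF4 in 8 of 18 each. With atorvastatin 0 rose and NDUFAF4 fell (-0.51), where 1.55% and 1.06% of all genes were called. That call rested on the array with the low signals above, atorvastatin at 48 h of experiment 1: without it the change was -0.30 and did not pass. With the combination 2 rose and 17 fell, where 7.75% and 8.26% of all genes were called, and under median scaling 2 rose and 2 fell. NDUFB1 (0.46) and ATP5F1E (0.38) were the 2 that rose, with calls lost in 5 of 18 and 8 of 17 alternatives. NDUFAF2 (-1.02), NDUFAF6 (-0.83), ATP5MC1 (-0.79), NDUFAF4 (-0.75), NDUFA6 (-0.63), NDUFS3 (-0.59), NDUFB10 (-0.59) and NDUFA11 (-0.59) fell furthest. Among these, the call of NDUFB10 was lost in 7 of 18 alternatives, NDUFS3 in 5 of 18 and NDUFA11 in 2 of 18, and each of the others in 1.

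The change of the combination against control itself differed between 48 and 8 h in 5 of the 91 genes, all lower at 48 h, with 2.53% of all genes lower and 3.12% higher. These were NDUFAF2, NDUFAF4, NDUFA12, NDUFB9 and the dim COX6A2, and under median scaling only COX6A2 was still called. In NDUFB9 the combination arrays at 8 h (12.20, 12.09 and 12.11) overlapped control (12.21, 12.14 and 12.13), and at 48 h they lay below it. NDUFAF2 and NDUFA12 overlapped at 8 h too, whereas the NDUFAF4 arrays already lay below control then (-0.33, not past the threshold) and those of COX6A2 above it (0.44, not past the threshold).

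Genes that work beside the chain were counted from 5 lists. At 48 h of the combination against control, 8 of 28 other assembly factors fell and 1 rose (median -0.19; 0.13 under median scaling, with 1 fall and 2 rises). COA7, an assembly factor of complex IV, fell by 1.20 (SE 0.17) and was called under both scalings. COX10, which makes haem for complex IV, fell by 0.82 (SE 0.19), FOXRED1, a complex I factor, by 0.78 (SE 0.12), and COX17, a copper chaperone of complex IV, rose by 0.64 (SE 0.16).

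Of 18 electron carriers and ubiquinone synthesis genes, 4 fell and 0 rose (median -0.07; 0.25 under median scaling, with 2 falls and 3 rises). COQ8A, a regulator of ubiquinone synthesis, fell by 1.23 (SE 0.16), and DHODH, the pyrimidine enzyme that passes electrons to ubiquinone, fell by 1.22 (SE 0.19), both called under either scaling. Of 8 carriers of phosphate and adenine nucleotides, 3 fell, the outer membrane channels VDAC1 (-0.79), VDAC2 (-0.61) and VDAC3 (-0.34), and 0 rose; under median scaling 0 were called. Of 17 citric acid cycle genes 3 fell and 0 rose (median -0.17; 0.25 under median scaling, with 1 fall and 3 rises).

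Of 16 regulators of mitochondrial gene expression 7 fell and 1 rose (median -0.30; 0.09 under median scaling, with 2 falls and 1 rise). PPRC1, a coactivator related to PGC-1, fell by 1.17 (SE 0.14) and POLG2, a subunit of the mitochondrial DNA polymerase, by 1.00 (SE 0.13), both called under either scaling. POLRMT (-0.72), the mitochondrial RNA polymerase, TFAM (-0.50), which packages mitochondrial DNA, and TFB1M (-0.54) fell too. ESRRA, a nuclear receptor that binds promoters of this pathway, rose by 0.90 (SE 0.13), also under either scaling. NRF1 itself had a change of 0.07 (SE 0.16) and GABPA of -0.02 (SE 0.22), while its partner GABPB1 fell by 0.66 (SE 0.16). For scale, 27 of 76 mitochondrial ribosomal protein genes fell and 2 rose, and 13 of 83 cytosolic ones fell and 4 rose; under median scaling these were 3 and 4, and 0 and 5.

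Markers of cell state moved beside these counts. At 48 h the summed signal of 5 of 6 listed promyelocyte genes ran from 59.90 to 60.39 in control, 54.59 to 56.38 with ATRA, 56.81 to 58.38 with atorvastatin and 52.15 to 53.89 with the combination. CTSG (13.81 in control and 9.36 in the combination) and MPO (14.99 and 13.21) made up most of the difference, PRTN3 was at 12.74 and 12.75, and ELANE was near background throughout. The sum of 4 of 4 ATRA response genes was 28.32 to 28.51 in control and 47.53 to 48.14 in the combination. The sum of 3 of 5 lymphoid genes was 22.66 to 23.73 in control and 24.80 to 25.24 in the combination. Of them, CD79A had a mean of 6.72 in control and 9.07 in the combination, CD3D went the other way, from 10.13 to 9.72, and MS4A1 was near background. The part of these shifts in the changes of respiratory chain genes was not tested. In whole cultures, fewer cells of a type and less RNA per cell cannot be told apart.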

How the data were processed

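Total RNA of NB4 cells was measured on 36 arrays. Per the labels, BeadStudio 1.3.1.5 gave the authors an average bead signal per probe, with no background subtracted. The deposited array files hold this intensity, which is linear and differs in level between arrays. The authors' deposited table of log2 values was used only as an alternative; its column medians ran from 6.68 to 6.69 and each of its 36 columns correlated best with its own array. How it was normalized is not given in the sources used here. Groups come from the sample titles, and the experiment from the runs of numbers in them.

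Background correction of the 47293 probes used normexp, fitted to the signals themselves with an offset of 50, and quantile normalization followed (limma 3.58.1, R 4.3.3). The filter required a signal over the array median on 3 or more arrays, which left 41648 probes, and the brightest probe stood for each of 15308 genes. ATP5IF1 and NDUFAF3 were the 2 members with more than 1 named probe. Symbols come from the platform annotation, updated through RefSeq; 18468 probes carried 1 symbol and 28825 none. NDUFA4 is now named COXFA4, so the naming rule does not take it.

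A model of 12 group means (24 residual degrees of freedom) gave 23 contrasts, each adjusted by Benjamini-Hochberg over all genes. The procedure was tested on simulated data. The number of arrays limits the precision. Members, lists and tests were chosen with earlier results of these data known. The genes named are, in each contrast, up to 8 members with the largest rises and falls past the threshold, then the SDH genes, the isoform pairs, the brightest and dimmest member of each complex, and members moving against their complex. The alternatives changed the scaling (median instead of quantile), the background step (none), the values (the authors' log2 table), the probes (no filter, an interquartile range of at least 0.2, or a mean over all probes of a gene), the arrays (1 time only, without the 2 doubted ones, without each array or experiment) or the model (experiment as a block).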

Additional observations from a re-analysis of the deposited data

Results flagged for a closer look

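For 5 genes the change of the combination against control differed between 48 and 8 h by a direct test of that difference in limma. The differences (48 h minus 8 h) were -0.96 for NDUFAF2 (SE 0.26), -0.63 for NDUFA12 (SE 0.17), -0.62 for NDUFAF4 (SE 0.19), -0.59 for NDUFB9 (SE 0.16) and -0.73 for COX6A2 (SE 0.17), each lower in 3 of 3 experiments. Most of these calls were unstable. That of NDUFAF4 was lost in 12 of 24 alternatives, NDUFA12 in 10 of 24, NDUFB9 in 8 of 23 and NDUFAF2 in 7 of 24. For COX6A2 it was lost in 2 of 23. COX6A2, the muscle isoform, lies near background: its combination arrays were at 6.65, 6.71 and 6.75 at 8 h, above control at 6.26, 6.16 and 6.37, and its groups overlapped at 48 h. No cause was tested.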

How the results depend on the processing

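Counts are members past the threshold. Without background correction, atorvastatin against control at 48 h had 1 and control cells from 8 to 48 h had 2. Under median scaling, calls were 1 in ATRA against control at 24 h, 2 in the combination against control and 8 in the combination against atorvastatin at 24 h. At 48 h they were 2 in ATRA against control, 10 in the combination against control, 0 in the combination against ATRA and 30 in the combination against atorvastatin. From 8 to 48 h they were 0 in control and ATRA, 2 in atorvastatin and 4 in the combination, and 1 gene differed between 48 and 8 h of the combination against control. Median changes under median scaling were 0.13 (ATRA), -0.24 (atorvastatin) and 0.18 (combination) against control at 48 h, 0.026 and 0.40 for the combination against ATRA and against atorvastatin, -0.081 from 8 to 48 h of the combination and -0.038 for the 48 h minus 8 h difference. The combination against atorvastatin at 48 h turned to 0.14 for NDUFA10, 0.16 for NDUFA11, 0.11 for NDUFAF4, 0.14 for NDUFB9 and 0.19 for NDUFA12. The cause was not tested.

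With the authors' log2 values, calls were 1 in the combination against control at 8 h, 2 in ATRA and 1 in atorvastatin against control at 48 h (median -0.040 for atorvastatin), and from 8 to 48 h 2 in control, 2 in atorvastatin and 11 in the combination (median -0.14). The mean over a gene's probes gave 1 for atorvastatin against control at 48 h. An interquartile range of at least 0.2 gave 3 for the 48 h minus 8 h difference, with 72 members tested. Arrays of 1 time only gave 1 and 2 for the combination against control at 8 and 24 h, 2 for ATRA against control, 1 for the combination against ATRA and 3 for the combination against atorvastatin at 48 h. Without the 2 doubted arrays, calls were 1 in the combination against control at 8 h, 1 in ATRA against control and 4 in the combination against atorvastatin at 24 h, 1 in atorvastatin against control at 48 h, and from 8 to 48 h 2 in control and 2 in atorvastatin.

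Arrays of the same experiment had deviations from their group means that correlated between -0.53 and 0.44 (median 0.14), over 0.1 in 126 of 198 pairs, against 57 of 396 pairs from other experiments (median -0.079). Same-numbered arrays thus shared some variation, but not in every pair, and no label ties the numbers to experiments, so the model has no block. With the replicate block, calls were 1 in the combination against atorvastatin at 24 h, 8 in ATRA and 1 in atorvastatin against control and 7 in the combination against ATRA at 48 h, and from 8 to 48 h 2 in control and 3 in atorvastatin. With the replicate block and without the doubted arrays, they were 1 in the combination against control at 8 h, 2 in ATRA against control, 7 in the combination against control and 5 in the combination against atorvastatin at 24 h. At 48 h they were 8 in ATRA and 2 in atorvastatin against control and 8 in the combination against ATRA. From 8 to 48 h they were 3 in control, 5 in ATRA and 6 in atorvastatin, and 9 for the 48 h minus 8 h difference.

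Leaving out 1 array or experiment, calls ran from 0 to 5 in the combination against control and 0 to 4 in the combination against atorvastatin at 24 h. At 48 h they ran from 0 to 5 in ATRA against control, 0 to 5 in atorvastatin against control, 8 to 19 in the combination against control, 1 to 4 in the combination against ATRA and 3 to 9 in the combination against atorvastatin. From 8 to 48 h they ran from 0 to 1 in control, 0 to 2 in ATRA, 0 to 5 in atorvastatin and 8 to 17 in the combination, and from 1 to 6 for the 48 h minus 8 h difference. The fewest calls of the combination against control at 48 h came without experiment 2, which also leaves fewer arrays. Median changes ran from -0.061 to 0.036 (ATRA) and -0.19 to -0.11 (combination) against control at 48 h, and from -0.27 to -0.16 from 8 to 48 h of the combination. Signals near background limit the 10 dim members.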

Other observations

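The gene once called NDUFA4 and its relatives fall outside the naming rule, since their symbols now start with COXFA4, and they were looked at after their values were seen. COXFA4, a complex IV subunit, had 13.43, 13.28 and 13.25 in control at 48 h and 13.64, 13.56 and 12.76 in the combination, groups that overlapped, with a change of -0.0022 that did not pass. COXFA4L3, a relative of it that immune cells are known to make on activation, had 6.06, 6.11 and 6.31 in control and 7.27, 7.84 and 7.05 in the combination. Every combination array lay above all arrays of that time with ATRA alone (6.42 at most) and with atorvastatin alone (6.37 at most). It rose by 1.23 (SE 0.18, adjusted p = 2.27e-06 in limma) in the combination, and by 1.52 under median scaling. With ATRA alone its change was 0.04 (SE 0.18) and with atorvastatin alone 0.08 (SE 0.18), neither past the threshold. Against ATRA the combination was higher by 1.19 (SE 0.18) and against atorvastatin by 1.15 (SE 0.18), both past the threshold. The interaction was 1.11 (SE 0.25, adjusted p = 0.0248 in limma), and it passed under both scalings. Its signals in the other arms were near background, so the size of the rise is compressed. COXFA4L2, another relative, stayed near background, with 6.82, 6.74 and 6.31 in control and 6.32, 6.31 and 6.42 in the combination.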
